A study of Mus musculus with 12 samples.

Results

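The regions described here are the accessible stretches of chromatin that the deposited ATAC-seq table lists with a gene that does not code for a protein. In ATAC-seq a transposase, Tn5, inserts adapters where DNA is open, and the read count of a region measures how accessible it is. Members were all regions with a gene identifier whose gene type is given and is not protein_coding. They number 8547 of 81995 regions, or 10.4% of the table and 34.1% of the 25045 regions with a listed gene, and they belong to 6502 gene identifiers of 34 types. By class, 3582 regions lie at long non-coding RNAs (lincRNA, antisense and related types), 2385 at pseudogenes, 999 at TEC genes (predicted genes still to be experimentally checked), 930 at small RNAs other than miRNAs, 605 at miRNA genes and 46 at antigen receptor segments. The table itself names only 35 of these regions, so most symbols, which 3511 regions have in all, were taken from RefSeq by position and type. A gene with no match is called by its Ensembl identifier, type and position.

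The 12 libraries came from NIH/3T3, an immortal mouse fibroblast line, and fall into 4 groups of 3. PTC1 cells carried 2 alleles of Actg1, the gene of the cytoplasmic gamma-actin, c.[280A>G; 280_281insT] and c.280_281insT, both with an early stop in exon 3. PTC2 cells carried Actg1-202:r.1096_1097insn[4036], a long insertion that brings an early stop in exon 5. LD cells lacked the whole Actg1 locus, and WT cells were unedited. Each sample was 25000 cells. The study asks whether decay of a mutant mRNA changes chromatin elsewhere, so LD cells, with no Actg1 transcript to decay, stand beside the PTC cells. The submitters call the 3 samples of a genotype biological replicates but name no separate clones, so the p-values measure the spread between these samples and not between lines.

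Markers of fibroblasts were open. Of 13 fibroblast marker genes 12 had a region, with a median of 810.3 in PTC1, against 982 in WT, whereas markers of epithelium, endothelium, blood, neural cells and muscle had regions at 3 to 5 genes each and WT medians of 76.67 to 237.2. The neural markers had a median of 464.0 in PTC1, against 214.7 in WT, the blood markers 232.3 in PTC1, against 126.3 in WT, and the epithelial markers 33.67 in PTC2, against 89.0 in WT. Their part in the changes described below was not tested. The libraries summed to 31287351 to 34796876 counts after the authors' scaling. Replicates of a genotype correlated at 0.9819 to 0.9867 over all regions (Pearson's r of log2 values, across regions that are not independent), above every value between genotypes (0.8173 to 0.9334).

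Non-coding genes act in several ways. Long non-coding RNAs (lncRNAs) can scaffold chromatin complexes or silence neighbouring genes, miRNAs pair through bases 2 to 8, the seed, with target mRNAs and repress them, and small nuclear, nucleolar and Y RNAs serve splicing, RNA modification and RNA quality control. Processed pseudogenes are copies of mRNAs pasted back into the genome, mostly without a promoter of their own. T cell receptor segments are joined in lymphocytes and are not used by fibroblasts.

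The mature miRNAs below belong to the miRNA genes whose regions changed most or that share a seed, and they are shown with the seed in capitals (RefSeq, GRCm38.p6, the same assembly as mm10). Of the 297 miRNA genes with a matched symbol, 269 had a mature sequence. These carried 399 distinct seeds, of which 30 were shared by 2 or more of the genes.
miR-129-5p, from both Mir129-1 and Mir129-2: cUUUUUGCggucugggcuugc
miR-148a-3p: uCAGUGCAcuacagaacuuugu
miR-148b-3p: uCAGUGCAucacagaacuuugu
miR-344-5p: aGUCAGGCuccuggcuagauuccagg
miR-344b-5p: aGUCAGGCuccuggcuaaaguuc
miR-344c-5p: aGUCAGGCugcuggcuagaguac
miR-344d-3-5p: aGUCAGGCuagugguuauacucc
miR-21a-5p: uAGCUUAUcagacugauguuga
miR-214-3p: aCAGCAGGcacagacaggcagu
miR-7117-5p: uCUGGGGGcucagcugaggaua
miR-6420: aCUAAUCCuauaaaaucaaac
miR-8110: aAGCGUGGauugggggggggg
miR-1899: aGCGAUGGccgaaucugcuucc
The first lines show the pairs and family that matter below: Mir129-1 and Mir129-2 give the same mature miRNA from chromosomes 6 and 2, Mir148a and Mir148b share the seed CAGUGCA, and the printed 5p arms of the Mir344 genes share GUCAGGC.

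For lncRNAs with an open region over the start site, the 300 bases from 250 before to 50 after the start are shown, with the transcribed 50 in capitals (RefSeq, GRCm38.p6). The changes described below were measured over the deposited regions, which overlap these windows but have other bounds.
Firre (chrX:50635272-50635571, minus strand): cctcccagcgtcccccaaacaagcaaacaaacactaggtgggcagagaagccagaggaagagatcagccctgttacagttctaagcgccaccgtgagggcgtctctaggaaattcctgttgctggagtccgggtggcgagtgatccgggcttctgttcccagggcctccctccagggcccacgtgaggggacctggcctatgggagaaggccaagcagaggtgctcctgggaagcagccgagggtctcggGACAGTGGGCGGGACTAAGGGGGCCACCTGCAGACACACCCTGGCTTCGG
Airn (chr17:12741061-12741360, plus strand): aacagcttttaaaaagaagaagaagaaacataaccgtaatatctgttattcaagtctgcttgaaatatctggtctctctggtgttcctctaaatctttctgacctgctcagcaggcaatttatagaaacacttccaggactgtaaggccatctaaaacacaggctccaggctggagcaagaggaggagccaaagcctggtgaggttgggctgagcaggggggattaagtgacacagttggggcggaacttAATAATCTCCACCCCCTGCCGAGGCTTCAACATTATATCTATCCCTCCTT
Malat1 (chr19:5802623-5802922, minus strand): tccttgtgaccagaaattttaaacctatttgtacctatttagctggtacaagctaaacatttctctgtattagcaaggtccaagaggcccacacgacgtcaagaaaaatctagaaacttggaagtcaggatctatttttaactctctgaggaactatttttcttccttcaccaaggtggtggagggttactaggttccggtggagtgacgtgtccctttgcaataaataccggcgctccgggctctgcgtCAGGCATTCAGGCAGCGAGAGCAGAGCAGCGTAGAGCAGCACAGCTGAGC
Gm11228 (chr4:71131084-71131383, minus strand): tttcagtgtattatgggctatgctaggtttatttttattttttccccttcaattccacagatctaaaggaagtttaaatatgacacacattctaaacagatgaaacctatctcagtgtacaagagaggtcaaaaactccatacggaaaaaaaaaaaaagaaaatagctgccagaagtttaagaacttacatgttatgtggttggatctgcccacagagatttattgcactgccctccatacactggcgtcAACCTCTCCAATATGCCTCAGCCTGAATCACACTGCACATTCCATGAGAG
1700011C11Rik (chr7:71960925-71961224, plus strand): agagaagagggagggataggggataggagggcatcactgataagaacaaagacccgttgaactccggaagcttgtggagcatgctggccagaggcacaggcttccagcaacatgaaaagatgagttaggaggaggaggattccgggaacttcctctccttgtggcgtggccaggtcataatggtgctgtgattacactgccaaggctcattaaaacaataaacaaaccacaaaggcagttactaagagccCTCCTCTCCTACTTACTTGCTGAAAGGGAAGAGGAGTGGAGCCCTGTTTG
Alkbh3os1 (chr2:93979784-93980083, plus strand): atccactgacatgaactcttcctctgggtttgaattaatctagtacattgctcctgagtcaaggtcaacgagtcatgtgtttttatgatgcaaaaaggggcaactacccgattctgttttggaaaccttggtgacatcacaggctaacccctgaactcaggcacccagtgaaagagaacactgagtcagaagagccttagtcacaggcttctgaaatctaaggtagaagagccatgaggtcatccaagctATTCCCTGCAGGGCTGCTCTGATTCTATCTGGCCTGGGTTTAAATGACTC
Dnm3os (chr1:162217373-162217672, plus strand): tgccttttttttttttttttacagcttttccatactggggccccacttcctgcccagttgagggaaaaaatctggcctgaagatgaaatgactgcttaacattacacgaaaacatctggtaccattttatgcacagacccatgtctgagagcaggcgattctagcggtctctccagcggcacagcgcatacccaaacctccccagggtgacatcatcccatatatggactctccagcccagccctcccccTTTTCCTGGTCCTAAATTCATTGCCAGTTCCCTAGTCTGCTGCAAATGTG
Both strands of each window were searched for 5 motifs, with overlaps allowed. These were the TATA box (TATAAA), the CCAAT box, the GC box (GGGCGG), an AP-1-like motif (TGANTCA) and the CArG box of serum response factor. The AP-1-like motif takes any middle base, so it is wider than the AP-1 site TGA(C/G)TCA. The Firre window was the richest in G and C at 62.7% and held a GC box. The Gm11228 window was the poorest at 38.3%. It held a CCAAT box and the AP-1-like match TGAATCA, both in the transcribed bases. The Airn window held a TATA box and a GC box, the Alkbh3os1 window an AP-1-like motif (TGAGTCA) and the Dnm3os window a CArG box. The Malat1 and 1700011C11Rik windows held none of the 5. Over the 238 non-coding genes with a region over such a window, 21.0% of windows held an AP-1-like motif and 33.2% a GC box. The shares were 5.1% and 70.4% of 7283 protein-coding windows with a region. No region of the non-coding genes lay within 5000 bp of a coding start that the table lists. Non-coding starts beside such a start are therefore missing from this comparison. Of all 27025 windows in the RefSeq table, with or without a region, 7.9% held an AP-1-like motif and 35.9% a GC box. The TATA box was in 12.6% of the non-coding windows, 6.2% of the protein-coding windows and 14.2% of all windows, the CCAAT box in 37.0%, 39.7% and 37.9%, and the CArG box in 2.1%, 1.3% and 1.6%. A match is a run of letters and was not tested as a binding site.

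Most members lay away from the start of their gene. The centre lay within 500 bp of the start of the listed gene for 1350 members (15.8%), against 54.3% of regions of protein-coding genes, and the median distance was 2326 bp against 382 bp. No member lay within 5000 bp of a protein-coding start that the table lists, the nearest being 5124 bp away, so promoters shared with a listed coding gene are not among them. Non-coding starts beside a listed coding start are therefore missing from the 15.8%. Whether the table's choice of a gene for each region set this limit was not tested. A RefSeq protein-coding gene overlapped 38.2% of members, from 75.7% of antisense and 63.6% of miRNA regions to 6.68% of lincRNA regions.

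Members were also narrower and less open than coding regions. Their median width was 502 bp against 954 bp, and their median normalized read count in WT was 108.7 against 710.7 in protein-coding regions and 88.67 in regions with no listed gene. Together they took 8.12 to 8.29% of the counts of a PTC1 library, 8.01 to 8.11% in PTC2, 8.4 to 8.53% in LD and 8.29 to 8.39% in WT. Low counts carried more error: the median SD of log2 values within a group was 0.156 to 0.159 for members and 0.089 to 0.095 for protein-coding regions. LncRNA regions were the most open class, with a WT median of 130.7, and pseudogene regions, the least open of the large classes, had 84.67.

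**Figure D1:**
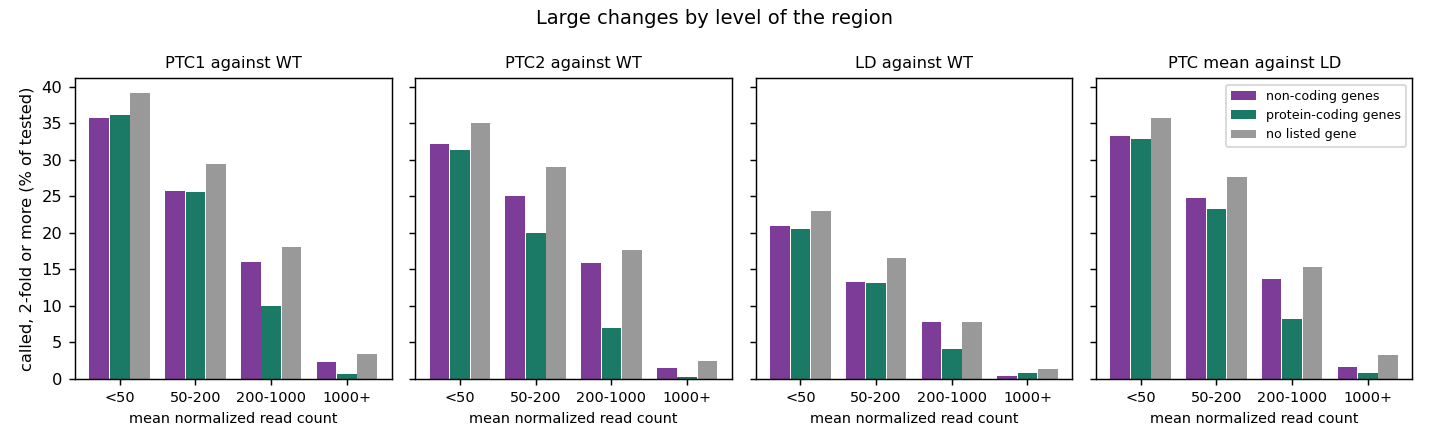
Share of regions called with a change of 2-fold or more (y axis, % of regions tested) by mean normalized read count over all libraries (x axis, 4 ranges), for regions of non-coding genes, protein-coding genes and no listed gene, with a panel for each comparison. The share fell with level in every panel, in non-coding genes of PTC1 against WT from 35.7% under 50 to 2.3% at 1000 or more.

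Large changes followed the level of the region, as the plot by level shows. Under a mean of 50, 35.7% of members and 36.2% of protein-coding regions changed 2-fold or more between PTC1 and WT. Between 200 and 1000 the shares were 16.0% of members, 10.0% of protein-coding regions and 18.1% of regions with no gene. At that level members stood nearer the regions with no gene than the coding regions in each of the 4 comparisons, with no test of the difference. Under 50 they stood nearer the coding regions in each of the 4, and 39.2% of regions with no gene changed in PTC1. In the other ranges the nearer set differed between comparisons.

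Non-coding regions were called about as often as the rest of the table. PTC1 cells had 2609 regions higher and 2618 lower than WT, or 61.2% of members, where 61.8% of all regions tested were called in PTC1 against WT. In PTC2 cells 2331 rose and 2654 fell (58.3%, with 58.2% called over all regions in PTC2 against WT), and in LD cells 2057 rose and 1956 fell (47.0%, with 47.4% over all regions in LD against WT). The mean of PTC1 and PTC2 was higher than LD at 2546 members and lower at 2912 (63.9%, with 64.8% over all regions). A call is a limma test of log2 of the count plus 1 whose p stays under 0.05 after Benjamini-Hochberg adjustment over the 81985 regions that entered the fit. The log2 changes below, and every value after "rose by" or "fell by", are on that scale, which understates the changes of low regions. Changes of 2-fold or more were called at 23.8%, 22.5% and 12.7% of members in PTC1, PTC2 and LD against WT and at 22.1% in the PTC mean against LD, with 24.4%, 22.6%, 13.3% and 22.3% over all regions. The share of members called was thus close to the background in each comparison. In bulk libraries a change in every cell and a change in some of the cells cannot be told apart.

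**Figure D2:**
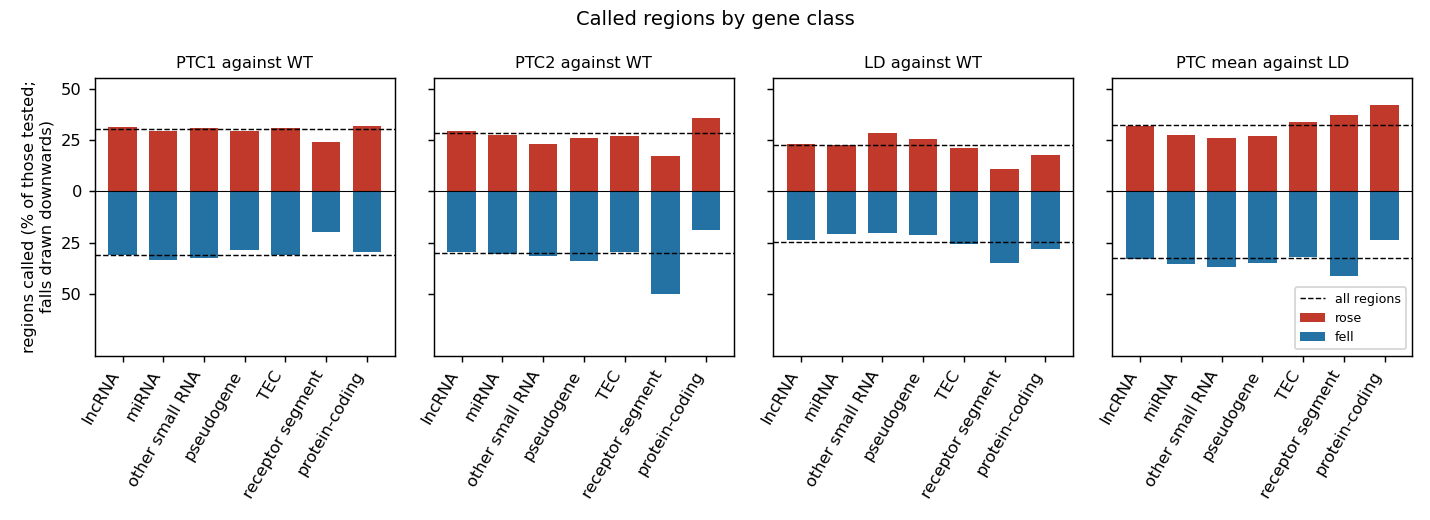
Share of tested regions called as higher (upwards) or lower (downwards) for each class of non-coding gene and for protein-coding genes (x axis), with a panel for each comparison and dashed lines at the shares over all regions. Receptor segments fell at 50.0% of regions in PTC2 against WT, and protein-coding regions rose more often than they fell in the PTC mean against LD (42.0% and 23.7%).

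The balance of rises and falls differed more than the totals. Protein-coding regions rose at 35.5% and fell at 18.7% in PTC2 against WT, and rose at 17.5% and fell at 28.2% in LD against WT, while members rose at 27.3% and fell at 31.1% in PTC2 and rose at 24.1% and fell at 22.9% in LD. In the PTC mean against LD, 42.0% of protein-coding regions rose and 23.7% fell, against 29.8% and 34.1% of members. Members within 500 bp of their start lay between, with 36.0% higher and 32.1% lower in the PTC mean than in LD. These balances were not tested, and they move with the scaling: setting every library to the same median moved the median of all regions in the PTC mean against LD to 0.115 (log2), from -0.004 on the deposited scale, and in PTC2 against WT to 0.115, from 0.02.

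The larger classes were called at similar shares, as the plot by gene class shows. In PTC1 against WT, lncRNA regions were called at 62.3%, miRNA regions at 62.8%, other small RNA regions at 63.2%, TEC regions at 62.0% and pseudogene regions at 58.2%. In LD against WT the range over these classes was 43.5% for miRNA regions to 48.7% for other small RNA regions.

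The HOX and developmental antisense RNAs held the largest change in any of the 6 gene lists. Hotair, an antisense RNA of the HOXC cluster that binds chromatin-modifying complexes, had 1 region over its start at chr15:102947235-102948078. Its normalized read counts were 306, 301 and 349 in the PTC1 libraries, 81, 66 and 81 in those of PTC2, 9, 34 and 27 in those of LD, and 13, 21 and 27 in WT. Every PTC1 library was above every PTC2 library, both groups were above all WT libraries, and LD and WT overlapped. The log2 change was 3.96 (SE 0.3, adjusted p = 2.87e-12) in PTC1 and 1.90 (SE 0.3, adjusted p = 3.86e-06) in PTC2 against WT, and 0.06 (adjusted p = 0.884) in LD. The PTC mean exceeded LD on the log2 scale by 2.87 (SE 0.26, adjusted p = 9.87e-11). Members on chromosome 15 were raised as a whole in PTC1, with a median log2 change of 0.456, 59.6% of regions higher and 10.2% lower. With the median change of the regions within 1000000 bp removed from each region, Hotair stood at a log2 change of 3.46 in PTC1.

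The rest of this list had smaller changes. Hotairm1, a HOXA antisense RNA, had a low region 4471 bp from its start with 59, 57 and 46 in PTC1, against 23, 18 and 25 in WT, a log2 change of 1.26 (adjusted p = 0.000544). Tbx3os2, antisense to Tbx3, rose by 0.90 (adjusted p = 0.00589) in PTC1. Zeb2os, antisense to the epithelial-mesenchymal regulator Zeb2, changed on the log2 scale by -0.17 (adjusted p = 0.038) in PTC1, and by 0.022 once the median of its chromosome is removed. Of the 29 listed genes these 4 had a region. In PTC1 3 rose and 1 fell, in PTC2 1 rose, and in LD none was called, where 61.8%, 58.2% and 47.4% of all regions were called in PTC1, PTC2 and LD.

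Nuclear lncRNAs differed between the lines. Malat1, an abundant RNA of nuclear speckles, had 1 region over its start and 2 upstream of it, and all 3 fell in PTC1. The largest, 1328 bp upstream at chr19:5803071-5804928, had 1133, 1034 and 1086 in the PTC1 libraries, 2012, 1938 and 2079 in those of PTC2, 2346, 2341 and 2334 in those of LD, and 1791, 1905 and 1902 in WT. PTC1 lay below every other library and LD above all, with log2 changes of -0.78 (SE 0.055, adjusted p = 4.8e-13) in PTC1, 0.11 (adjusted p = 0.0985) in PTC2 and 0.33 (adjusted p = 1.55e-05) in LD against WT. The region over the start (chr19:5802375-5802882) fell by 0.68 in PTC1 (adjusted p = 2.12e-06), rose by 0.31 (adjusted p = 0.012) in PTC2 and gave -0.09 (adjusted p = 0.521) in LD. The third, 3639 bp upstream, changed on the log2 scale by -1.08 (adjusted p = 2.44e-09) in PTC1 and 0.48 (adjusted p = 0.000897) in LD. In LD both upstream regions rose, and no change passed the test at the start.

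Of 8 regions at 5 of the 19 nuclear, stress and growth lncRNAs listed, 2 rose and 4 fell in PTC1, 3 rose and 1 fell in PTC2, and 3 rose and 3 fell in LD. Over all regions 30.6% rose and 31.2% fell in PTC1, 28.4% and 29.8% in PTC2, and 22.6% and 24.7% in LD.

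Firre and Airn each fell in a different line. Firre, an X-linked RNA that anchors chromosome loci in the nucleus, had a start region (chrX:50634942-50635910) with 585, 632 and 683 in the PTC1 libraries, 558, 567 and 568 in those of PTC2, 295, 266 and 336 in those of LD, and 578, 570 and 623 in WT. The 3 LD libraries were below the other 9, and the log2 change was -0.98 (SE 0.09, adjusted p = 2.73e-10) in LD, against 0.10 (adjusted p = 0.343) in PTC1 and -0.06 (adjusted p = 0.559) in PTC2. Members on chromosome X had a median of -0.444 in LD, and Firre stood at a log2 change of -0.56 with its neighbourhood removed. Airn, the imprinted antisense RNA that silences Igf2r, had a start region (chr17:12740937-12741920) with 729, 805 and 891 in the PTC1 libraries, 406, 402 and 321 in those of PTC2, 745, 668 and 612 in those of LD, and 830, 728 and 768 in WT. Here PTC2 was below all others, at a log2 change of -1.05 (SE 0.095, adjusted p = 1.15e-10), while a smaller region 832 bp from the start rose in LD by 1.06 (adjusted p = 7.36e-06).

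**Figure D3:**
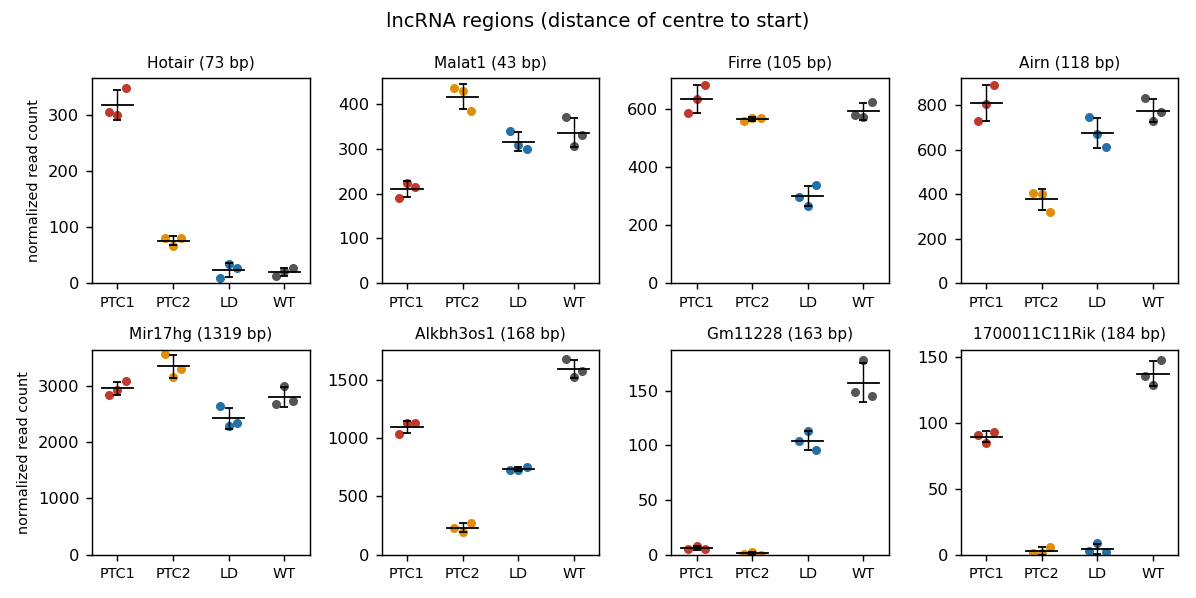
Normalized read counts (y axis) in the 3 libraries of PTC1, PTC2, LD and WT (x axis) for 8 lncRNA regions, with the mean (line) and SD (bars), and in brackets the distance of the region's centre from the gene's start. Hotair was highest in PTC1, Firre was lowest in LD, Airn and Alkbh3os1 were lowest in PTC2, and Gm11228 was near 0 in both PTC lines.

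Imprinted and X-inactivation RNAs had 9 regions over 6 of 16 listed genes. H19, a maternally expressed growth-restraining RNA, had a region 2303 bp from its start with 296, 281 and 284 in LD, against 157, 167 and 137 in WT. It rose by 0.90 (SE 0.12, adjusted p = 5.28e-07) in LD and gave -0.03 in PTC1 and -0.01 in PTC2, neither called. A low second region, at 3770 bp, had 0, 6 and 8 in PTC1, against 26, 22 and 28 in WT, a log2 change of -2.72 (adjusted p = 1.21e-05). Ftx, a lncRNA of the X-inactivation centre, changed on the log2 scale by -0.32 (adjusted p = 0.00343) in LD, and by 0.34 with its neighbourhood removed, the opposite sign. Over the list, 0 regions rose and 3 fell in PTC1, 1 rose and 3 fell in PTC2, and 4 rose and 1 fell in LD. Of all regions, 30.6% rose and 31.2% fell in PTC1, 28.4% and 29.8% in PTC2, and 22.6% and 24.7% in LD.

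Host genes of small nucleolar RNAs had small changes. Dancr, a lncRNA that holds cells undifferentiated, had 1343, 1231 and 1307 in LD, against 1744, 1813 and 1675 in WT at its start (chr5:74092599-74093576). LD was below all WT libraries, with a log2 change of -0.43 (SE 0.058, adjusted p = 4.28e-07), and the value was -0.05 in PTC1 and -0.03 in PTC2, neither called. Once its neighbourhood is removed, Dancr stood at -0.18 (adjusted p = 0.0304) in LD, 0.40 (adjusted p = 7.17e-06) in PTC2 and -0.07 (adjusted p = 0.401) in PTC1. Snhg20 rose by 0.62 (adjusted p = 5.18e-06) and Snhg15 by 0.26 (adjusted p = 0.000822) in PTC1, while Snhg17 fell by 0.37 (adjusted p = 0.000191). With neighbours removed Snhg15 stood at 0.11 and was no longer called. Snhg8 stayed within -0.11 and 0.14 in the 3 mutants. Of 7 regions, 2 rose and 2 fell in PTC1, 2 rose and 1 fell in PTC2, and 0 rose and 2 fell in LD, beside shares over all regions of 30.6% and 31.2%, 28.4% and 29.8%, and 22.6% and 24.7%.

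Genes of mesenchymal miRNAs and their hosts had more falls than rises in PTC1. Of 15 regions at 8 of the 21 listed genes, 0 rose and 10 fell in PTC1, with a median change of -0.322, against 30.6% rising, 31.2% falling and a median of 0.01 over all regions. In PTC2 4 rose and 2 fell, and in LD 6 rose and 2 fell, beside 28.4% and 29.8% of all regions in PTC2 and 22.6% and 24.7% in LD. Mir100hg, the host of the miR-100, let-7 and miR-125b genes, had 140, 120 and 141 in PTC1, against 319, 288 and 347 in WT at chr9:41326740-41327802, a log2 change of -1.24 (SE 0.1, adjusted p = 1.28e-11), while PTC2 and LD rose by 0.68 and 0.88. Its other named region, 289 bp from a start, fell by 0.57 in PTC1 and stood at a log2 change of 0.00 with its neighbourhood removed. Chromosome 18, where 3 of the 15 regions lie, had a median of -0.45 in PTC1. With neighbourhoods removed, 2 of the 15 regions were called higher and 5 lower in PTC1. The 15 are not separate loci, since Mir100hg and Mir21a have 3 regions each. The 2 regions at H19 are also counted in the imprinted and X-inactivation list.

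Dnm3os and Mir214 share 1 transcription unit. Dnm3os, antisense to Dnm3, is the precursor of miR-199a and miR-214, and its start region (chr1:162216741-162218084) held 1864, 1822 and 1789 in the PTC1 libraries, 2769, 2345 and 2474 in those of PTC2, 2226, 2203 and 2174 in those of LD, and 2054, 1903 and 1836 in WT. PTC2 was above all WT libraries, at a log2 change of 0.39 (SE 0.058, adjusted p = 1.58e-06), and PTC1 gave -0.08 (adjusted p = 0.238). LD rose by 0.19 (adjusted p = 0.00833), which became -0.10 with the neighbourhood removed. The region 2154 bp from Mir214 (chr1:162224821-162226222) changed on the log2 scale by -0.34 (adjusted p = 0.000554) in PTC1, 0.53 (adjusted p = 1.45e-06) in PTC2 and 0.66 (adjusted p = 5.52e-08) in LD. Once the neighbourhood is removed, PTC1 stood at -0.16, no longer called.

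The host of the growth-promoting miR-17 cluster, Mir17hg, had 2 regions that moved in opposite directions in PTC2. The large one, at chr14:115040398-115042721, had 3564, 3161 and 3297 in PTC2 and 2633, 2291 and 2346 in LD, against 2671, 2996 and 2725 in WT, with log2 changes of 0.26 (adjusted p = 0.000397) and -0.21 (adjusted p = 0.00407). Too few regions lay near this region for a local median. With the median of its chromosome removed instead, the value in LD was -0.06, no longer called. The small one, 5166 bp from the start, changed on the log2 scale by -0.92 in PTC2 and -1.38 in LD (adjusted p = 9.71e-06 and 2e-08).

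In the PTC mean against LD, where 32.1% of all regions rose and 32.6% fell, the mesenchymal list had 3 regions higher and 7 lower, the imprinted and X-inactivation list 2 and 5, and the nuclear list 3 and 3. The snoRNA host genes had 5 higher and 1 lower and the HOX list 2 and 0. With neighbourhoods removed the imprinted and X-inactivation list had 1 region higher and 8 lower.

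The largest changes of lncRNA regions were at less studied genes and were close to gain or loss. Gm11228, whose start window was rich in A and T, had 5, 8 and 5 in the PTC1 libraries, 1, 3 and 0 in those of PTC2, 104, 113 and 96 in those of LD, and 149, 178 and 145 in WT at chr4:71130998-71131594. Both PTC lines were near 0 and below every LD and WT library, with log2 changes of -4.52 (SE 0.37, adjusted p = 1.08e-11) in PTC1, -6.30 (SE 0.37, adjusted p = 8.53e-15) in PTC2 and -0.58 (adjusted p = 0.195) in LD. Its neighbours fell too, and -4.56 remained in PTC2 with their median removed. At 1700011C11Rik the start region (chr7:71960761-71961216) had 91, 85 and 93 in the PTC1 libraries, 1, 1 and 6 in those of PTC2, 3, 9 and 2 in those of LD, and 136, 129 and 148 in WT. It was near 0 in PTC2 and LD and open in PTC1 and WT, at log2 changes of -5.51 (SE 0.42, adjusted p = 2.55e-12) in PTC2, -4.81 (SE 0.42, adjusted p = 1e-10) in LD and -0.61 (adjusted p = 0.206) in PTC1. Alkbh3os1, antisense to the DNA repair gene Alkbh3, had the lowest adjusted p of the antisense regions in PTC2. Its start region (chr2:93979371-93980360) held 1034, 1126 and 1128 in the PTC1 libraries, 232, 192 and 269 in those of PTC2, 726, 724 and 752 in those of LD, and 1679, 1523 and 1577 in WT, and it fell in all 3 mutants, most in PTC2 at a log2 change of -2.79, against -0.54 in PTC1 and -1.12 in LD.

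Rises of the same size were found as well. Gm4251 had 459, 514 and 504 in PTC1, against 8, 12 and 7 in WT at chr14:71251880-71252541, a log2 change of 5.66 (SE 0.31, adjusted p = 2.11e-15), with 4, 4 and 4 in PTC2 and 8, 19 and 14 in LD. 1700121N20Rik had 187, 242 and 257 in PTC1, against 4, 2 and 7 in WT at chr12:106448450-106449064, a log2 change of 5.53 (SE 0.38, adjusted p = 2.72e-13). Both were open in PTC1 and close to 0 in the other 3 groups. In PTC2 the lincRNA ENSMUSG00000100154 had 544, 502 and 580 at chr17:83069269-83070327, against 31, 20 and 25 in WT, a log2 change of 4.38 (SE 0.18, adjusted p = 3.45e-18). The lincRNA ENSMUSG00000117117 had 33, 12 and 16 in PTC1, 5, 20 and 2 in PTC2 and 726, 655 and 710 in LD, against 77, 69 and 97 in WT at chr17:50110510-50111439. It was the largest fall of the PTC mean against LD, at a log2 change of -5.87 (SE 0.34, adjusted p = 5.02e-15). Where a group was near 0, the fitted size depends on the 1 added to each count.

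At miRNA genes 177 regions rose and 203 fell in PTC1, 166 rose and 184 fell in PTC2, and 137 rose and 126 fell in LD, of 605. These shares lie near those of all regions, of which 30.6% rose and 31.2% fell in PTC1, 28.4% and 29.8% in PTC2, and 22.6% and 24.7% in LD. Only 10.2% of these regions lay within 500 bp of the miRNA and 63.6% overlapped a coding gene, so a region can belong to the host gene. Mir129-1 and Mir129-2, sources of the same miR-129-5p, had the lowest adjusted p of a miRNA region in LD and in PTC2. The Mir129-2 region (chr2:94241541-94244228) had 1956, 2108 and 2057 in the PTC1 libraries, 702, 764 and 776 in those of PTC2, 3074, 2865 and 2783 in those of LD, and 1677, 1672 and 1714 in WT. It was lowest in PTC2 and highest in LD, with log2 changes of -1.18 (SE 0.058, adjusted p = 2.27e-16) in PTC2, 0.78 (SE 0.058, adjusted p = 4.1e-12) in LD and 0.27 (adjusted p = 0.000184) in PTC1. The Mir129-1 region (chr6:29023132-29024511) had 1061, 977 and 964 in the PTC1 libraries, 688, 761 and 740 in those of PTC2, 448, 378 and 431 in those of LD, and 1039, 1097 and 972 in WT, lowest in LD, with log2 changes of -1.31 (SE 0.078, adjusted p = 3.67e-14) in LD, -0.51 (adjusted p = 2.43e-06) in PTC2 and -0.05 (adjusted p = 0.599) in PTC1. In LD the 2 genes of this miRNA thus moved in opposite directions, and in PTC2 both fell.

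Mir148a and Mir148b, the pair with the seed CAGUGCA, were chosen after their values were seen. The Mir148a region (chr6:51270369-51271342) had 486, 518 and 567 in the PTC1 libraries, 165, 102 and 129 in those of PTC2, 217, 220 and 253 in those of LD, and 70, 84 and 95 in WT. All 3 mutants were above WT, at log2 changes of 2.65 (SE 0.15, adjusted p = 1.93e-15) in PTC1, 0.65 (adjusted p = 0.000391) in PTC2 and 1.47 (adjusted p = 1.76e-09) in LD. At Mir148b the nearest region (chr15:103285587-103286197) had 320, 320 and 316 in PTC2, against 101, 118 and 118 in WT, and rose 2.83-fold in PTC2 (adjusted p = 3.89e-09), with a log2 change of 0.01 (adjusted p = 0.944) in PTC1.

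The Mir344 genes, a cluster of brain miRNAs on chromosome 7 of which 5 share the seed GUCAGGC, were also chosen after their values were seen. Their 7 regions, 2 at Mir344 and 1 each at Mir344b, Mir344c, Mir344d-1, Mir344d-2 and Mir344d-3, were lower than WT in PTC1, with log2 changes of -0.79 at Mir344d-2 to -2.44 at Mir344d-3, and all 7 were called. Mir344d-3 (chr7:61726130-61726624) had 38, 41 and 29 in the PTC1 libraries, 69, 75 and 71 in those of PTC2, 86, 98 and 120 in those of LD, and 193, 216 and 184 in WT, and it fell in all 3 mutants. In PTC2 Mir344d-2 rose by 0.84 (adjusted p = 0.00277), and Mir344b fell most, at a log2 change of -2.79 (SE 0.17, adjusted p = 2.34e-14). The neighbourhood fell as well: with its median removed, Mir344 stood at a log2 change of -0.84, Mir344b at 0.11, Mir344d-1 at 0.01, Mir344d-2 at 0.34 and Mir344d-3 at -1.39 in PTC1.

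**Figure D4:**
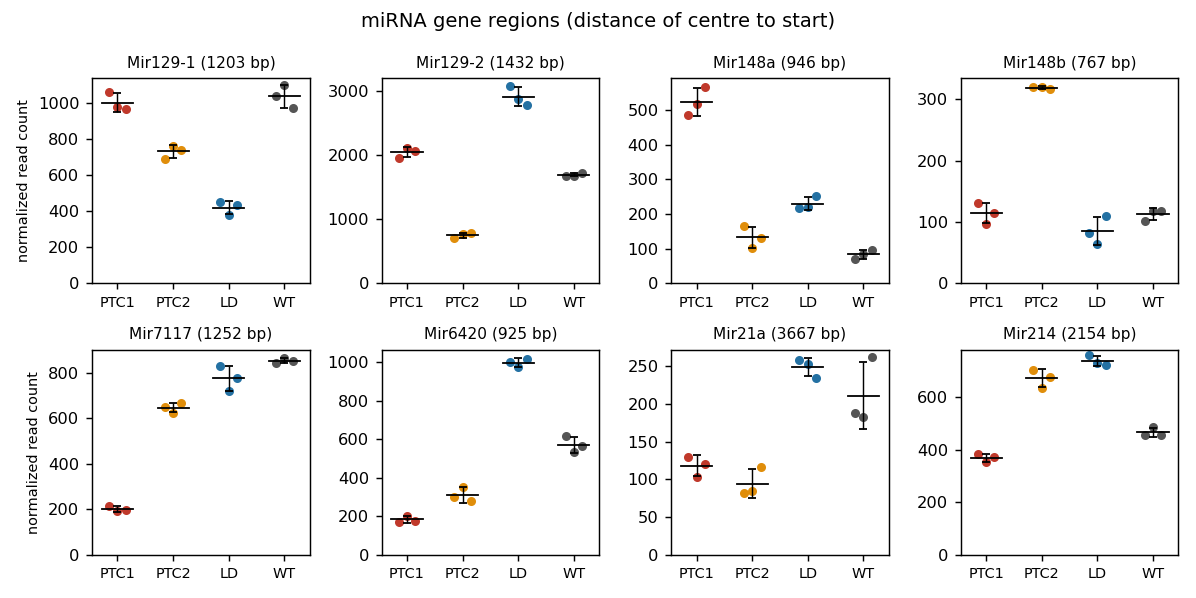
Normalized read counts (y axis) in the 3 libraries of PTC1, PTC2, LD and WT (x axis) for regions of 8 miRNA genes, with the mean (line) and SD (bars), and in brackets the distance of the region's centre from the gene's start. Mir129-1 was lowest in LD and Mir129-2 was lowest in PTC2, Mir148a was highest in PTC1 and Mir148b in PTC2, and Mir6420 was highest in LD.

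Other miRNA regions fell in the PTC lines. Mir7117 had the lowest adjusted p of a miRNA region in PTC1, with 217, 195 and 196 in the PTC1 libraries, 649, 626 and 668 in those of PTC2, 831, 721 and 777 in those of LD, and 843, 867 and 853 in WT at chr15:27569636-27570847 and a log2 change of -2.07 (SE 0.081, adjusted p = 6.26e-19) in PTC1. Mir6420 had 171, 202 and 178 in the PTC1 libraries, 298, 355 and 278 in those of PTC2, 1000, 974 and 1020 in those of LD, and 616, 534 and 566 in WT at chr17:64441416-64442045, below WT in both PTC lines and above it in LD, and the PTC mean differed from LD on the log2 scale by -2.06 (SE 0.084, adjusted p = 1.3e-18). Mir21a, whose product rises in activated fibroblasts, had 3 regions, of which only the region 3667 bp away (chr11:86580330-86580651) is named, for its low adjusted p. It had 130, 103 and 121 in the PTC1 libraries, 82, 84 and 117 in those of PTC2, 258, 253 and 235 in those of LD, and 188, 183 and 262 in WT. At this region the PTC lines lay below every LD and WT library. The log2 changes were -0.82 (SE 0.15, adjusted p = 3.9e-05) in PTC1, -1.15 (SE 0.15, adjusted p = 2.31e-07) in PTC2 and 0.25 (adjusted p = 0.18) in LD. Regions near Mir8110 and Mir1899 were close to 0 in WT and open in 1 mutant. Mir8110 had 280, 306 and 286 in PTC1, against 3, 4 and 8 in WT, a log2 change of 5.69 (adjusted p = 1.8e-10). Mir1899 had 59, 29 and 46 in LD, against 3, 0 and 0 in WT, a log2 change of 4.79 (adjusted p = 2.62e-06).

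Housekeeping small RNA genes had 6 regions over 5 of 26 listed genes, and many of these RNAs have near-identical copies whose reads may be shared. In PTC1 4 rose and 0 fell, in PTC2 3 rose and 0 fell, and in LD 1 rose and 1 fell, where 30.6% of all regions rose in PTC1, 28.4% in PTC2 and 22.6% in LD. Once neighbourhoods are removed, 3 rose in PTC1, 2 in PTC2 and 1 in LD, and 0 fell in each. Rnu2-10, a copy of the U2 spliceosomal RNA, had 3673, 3567 and 3496 in the PTC1 libraries, 3252, 3233 and 2997 in those of PTC2, 3307, 3138 and 3124 in those of LD, and 2977, 2568 and 2442 in WT at chr11:101657743-101660147. All mutant libraries were above all WT libraries, with log2 changes of 0.43 (SE 0.057, adjusted p = 1.46e-07) in PTC1, 0.25 (adjusted p = 0.000381) in PTC2 and 0.27 (adjusted p = 0.000313) in LD. Most of the change in PTC2 and LD was shared with neighbours, since 0.02 and 0.05 were left with their median removed. Rnu1a1, a U1 gene, rose by 0.33 (adjusted p = 1.79e-05) in PTC1 and 0.30 (adjusted p = 8.27e-05) in PTC2. Rny1, a Y RNA gene of the Ro quality-control particle, had 2 regions, and both rose in PTC1. Of these, 1 rose by 0.30 (adjusted p = 0.00246) in PTC1 and fell by 0.46 in LD (adjusted p = 3.48e-05). With neighbours removed that region stood at -0.08 and -0.08. The other Rny1 region was not called in LD. Rny3, next to it, was not called in any mutant against WT.

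Single small RNA genes showed larger changes. The region 3639 bp from Snord85, a snoRNA, had 28, 28 and 27 in the PTC1 libraries, 254, 219 and 247 in those of PTC2, 491, 385 and 455 in those of LD, and 370, 385 and 341 in WT at chr4:130745578-130746411. It was lowest in PTC1, at a log2 change of -3.67 (SE 0.12, adjusted p = 2.49e-20). Gm25408, typed as snoRNA, had 1517, 1701 and 1585 in the PTC1 libraries, 216, 181 and 210 in those of PTC2, 1932, 2054 and 1937 in those of LD, and 1179, 1012 and 1101 in WT at chr12:31056393-31057393. It was far lower in PTC2 than in any other group, at a log2 change of -2.44 (SE 0.076, adjusted p = 6.92e-21), and higher than WT in PTC1 and LD. Gm23529, also typed as snoRNA, had 83, 89 and 75 in PTC1, 254, 216 and 268 in PTC2 and 1019, 836 and 951 in LD, against 187, 192 and 234 in WT, with a log2 change of 2.19 (SE 0.12, adjusted p = 4.73e-15) in LD. The snRNA region Gm26139 had 91, 96 and 79 in LD, against 428, 446 and 399 in WT, a log2 change of -2.25 (SE 0.11, adjusted p = 1.57e-16). The largest fall of any member in PTC1 was at ENSMUSG00000088269, typed as rRNA, with 22, 11 and 11 in PTC1, against 949, 925 and 878 in WT at chr16:97495636-97496557. Its change was -5.94 (SE 0.17, adjusted p = 5.5e-22), and members on its chromosome 16 had a median of -0.443. With its neighbourhood removed it stood at -4.52. Mx2, at chr16:97534863-97536402, lies in the same neighbourhood.

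Among pseudogenes, Actg-ps1 is a processed copy of the mutated gene and the only one with a region that its symbol marks as an actin pseudogene. A symbol was found for only 1188 of the 2385 pseudogene regions, so other actin copies may have been missed. The region lies 3185 bp from the copy's start, at chr8:46225353-46226265, and had 2021, 2142 and 1884 in the PTC1 libraries, 2485, 2378 and 2341 in those of PTC2, 1812, 1914 and 1959 in those of LD, and 2452, 2382 and 2311 in WT. PTC1 and LD libraries were below all WT libraries, and PTC2 overlapped WT. The log2 changes were -0.24 (SE 0.055, adjusted p = 0.00038) in PTC1, 0.01 (SE 0.055, adjusted p = 0.869) in PTC2 and -0.33 (SE 0.055, adjusted p = 1.31e-05) in LD, with a 95% interval of -0.10 to 0.12 in PTC2. The PTC mean differed from LD on the log2 scale by 0.21 (adjusted p = 0.000262). With the median of neighbouring regions removed, the value in PTC1 was 0.28, the opposite sign, and in LD it was -0.50.

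Pseudogene regions as a class rose at 704 and fell at 684 of 2385 in PTC1, rose at 624 and fell at 805 in PTC2, and rose at 609 and fell at 511 in LD. All regions rose at 30.6% and fell at 31.2% in PTC1, at 28.4% and 29.8% in PTC2 and at 22.6% and 24.7% in LD. Pseudogenes of ribosomal proteins, a set chosen after the data were seen, had 101 regions at 73 genes, of which 33 rose and 24 fell in PTC1, 27 rose and 33 fell in PTC2, and 32 rose and 17 fell in LD, read against the same shares of all regions. Rps18-ps2 had the lowest adjusted p of a processed pseudogene in PTC1. Its region (chr4:8944947-8945526) had 922, 859 and 890 in the PTC1 libraries, 540, 585 and 564 in those of PTC2, 101, 96 and 101 in those of LD, and 97, 116 and 107 in WT, high in both PTC lines and alike in LD and WT, with log2 changes of 3.05 (SE 0.1, adjusted p = 2.1e-20) in PTC1 and 2.39 (SE 0.1, adjusted p = 9.03e-18) in PTC2. How reads from near-identical copies were assigned is not given in the sources used here.

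The largest named rises of the PTC mean over LD were at the processed pseudogenes Gm38541 and Gm18631. Gm38541 (chr15:46936914-46937816) had 1314, 1322 and 1282 in the PTC1 libraries, 352, 327 and 345 in those of PTC2, 10, 9 and 6 in those of LD, and 360, 293 and 312 in WT. LD was close to 0, PTC1 was above WT and PTC2 overlapped WT, so the PTC mean exceeded LD on the log2 scale by 6.19 (SE 0.12, adjusted p = 4.17e-26). Gm18631 (chr12:88215916-88216848) had 1235, 1147 and 1134 in the PTC1 libraries, 823, 842 and 749 in those of PTC2, 17, 23 and 16 in those of LD, and 98, 91 and 118 in WT, high in the PTC lines, low in WT and lower still in LD, with a log2 change of 5.64 (SE 0.11, adjusted p = 1e-25) in the PTC mean against LD. Gm19653 (chr6:97446588-97447484) had 1871, 1976 and 1756 in the PTC1 libraries, 141, 139 and 127 in those of PTC2, 297, 381 and 330 in those of LD, and 1184, 1063 and 1087 in WT and changed on the log2 scale by -3.02 (adjusted p = 2e-21) in PTC2, -1.73 in LD and 0.75 in PTC1. Polymorphic pseudogenes are genes that are disrupted in the reference strain and intact in some others. Rnls, the oxidase renalase, had 21, 31 and 14 in LD, against 250, 188 and 221 in WT at chr19:33391608-33392420, a log2 change of -3.32 (SE 0.17, adjusted p = 1.38e-15). Mx2, an interferon-induced antiviral gene, had 165, 200 and 164 in PTC1, against 733, 732 and 761 in WT at chr16:97534863-97536402, and fell in all 3 mutants, most in PTC1 at a log2 change of -2.07, against -1.38 in PTC2 and -0.51 in LD. With its neighbourhood removed Mx2 stood at a log2 change of -0.70 in PTC1 and -0.10 in LD, where it was no longer called.

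The most open members changed less than 2-fold. Over the 8 highest in WT, log2 changes ran from -0.845 to 0.464 in the 3 mutants against WT. The highest was at the lincRNA ENSMUSG00000087312 (chr6:31099728-31101141), with 3496, 3744 and 3747 in the PTC1 libraries, 3811, 3787 and 3739 in those of PTC2, 3978, 3769 and 3779 in those of LD, and 6344, 6404 and 6325 in WT. It was lower in all 3 mutants, at a log2 change of -0.80 for PTC1, -0.75 for PTC2 and -0.73 for LD, and the PTC mean differed from LD by -0.05 (adjusted p = 0.277). In LD only -0.13 was left with its neighbourhood removed. The lincRNA Gm34455, the next highest, rose in both PTC lines (0.12 for PTC1, 0.14 for PTC2), and the values turned negative, to -0.17 and -0.05, with neighbours removed.

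TEC genes rose at 307 and fell at 312 of 999 regions in PTC1, rose at 271 and fell at 294 in PTC2, and rose at 211 and fell at 255 in LD, near the 30.6% and 31.2%, 28.4% and 29.8%, and 22.6% and 24.7% of all regions in the same order. The lowest adjusted p of the type in PTC1 was at ENSMUSG00000104339 (chr3:52060852-52061554), which had 872, 841 and 811 in the PTC1 libraries, 76, 75 and 88 in those of PTC2, 35, 35 and 24 in those of LD, and 31, 22 and 20 in WT. It was high in PTC1, at a log2 change of 5.08 (SE 0.19, adjusted p = 1.69e-19), and raised in PTC2 by 1.69 (adjusted p = 6.51e-09). In LD the lowest was at ENSMUSG00000103748 (chr1:21836385-21836753), had 460, 484 and 480 in PTC1, 94, 116 and 123 in PTC2 and 6, 4 and 6 in LD, against 72, 75 and 76 in WT. It was high in PTC1 and near 0 in LD, and the PTC mean exceeded LD on the log2 scale by 5.20 (SE 0.16, adjusted p = 2.76e-21).

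Of the 46 regions at antigen receptor segments, 17 lay in a stretch of neighbouring regions that was low in PTC2, and 11 in another that was low in LD. The stretches were chosen after the values were seen, so they are given with no test. Each is the longest run of neighbouring regions with a log2 change of -1 or less in that line against WT. The low values inside and the ends of each stretch thus follow from this rule. On chromosome 14, the run held 19 neighbouring regions from 53505334 to 53736711, of which 17 lie at T cell receptor alpha V segments. Their log2 changes in PTC2 ran from -5.7 to -1.26 with a median of -4.01. The median region had 10.0 normalized reads in PTC2, against 133.3 in PTC1, 196.0 in LD and 192.3 in WT. Trav13-2 (chr14:53633360-53634167) had 1030, 960 and 1000 in the PTC1 libraries, 47, 43 and 50 in those of PTC2, 1109, 1075 and 1074 in those of LD, and 997, 942 and 904 in WT, and Trav12-2 (chr14:53615258-53616283) had 532, 528 and 432 in the PTC1 libraries, 7, 11 and 12 in those of PTC2, 486, 604 and 512 in those of LD, and 634, 508 and 540 in WT. Near the right end of the stretch PTC1 was low too, with log2 changes of -1.63 for Trav6-7-dv9 and -2.17 for Trav7-6. Beyond the end, 2 regions at Trav17 changed by -1.06 and -0.24 in PTC2. V segments are a family of similar copies, so reads may be shared among them.

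On chromosome 6, 20 neighbouring regions from 41051828 to 41694673, of which 11 lie at T cell receptor beta segments, had a median log2 change of -2.71 in LD, from -3.67 to -1.11. Their median region had 21.33 in LD, against 178.3 in PTC1, 152.2 in PTC2 and 106.2 in WT. Trbc2, a constant segment (chr6:41548049-41548830), had 914, 985 and 908 in the PTC1 libraries, 767, 759 and 744 in those of PTC2, 73, 63 and 58 in those of LD, and 483, 411 and 434 in WT, lowest in LD and higher than WT in both PTC lines. At the left end of the stretch, 2 regions at Trbv7 were low in PTC1 as well, at -1.49 and -1.15. That end is set by a region at Trbv3 with a log2 change of -0.74 in LD. The next regions outward had -1.02, -1.04 and -1.65 in LD. The 4 regions at Trbv31 had log2 changes between -3.57 and -2.86 in LD. The stretch also holds 2 regions of Prss2, a trypsinogen gene, at -3.65 and -3.67 in LD. Before the stretch, 2 regions at Moxd2 were lower in all 3 mutants, with log2 changes of -3.04 and -3.28 in PTC1, -2.77 and -2.35 in PTC2 and -3.80 and -3.27 in LD. Whether DNA was lost in these stretches was not tested.

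**Figure D5:**
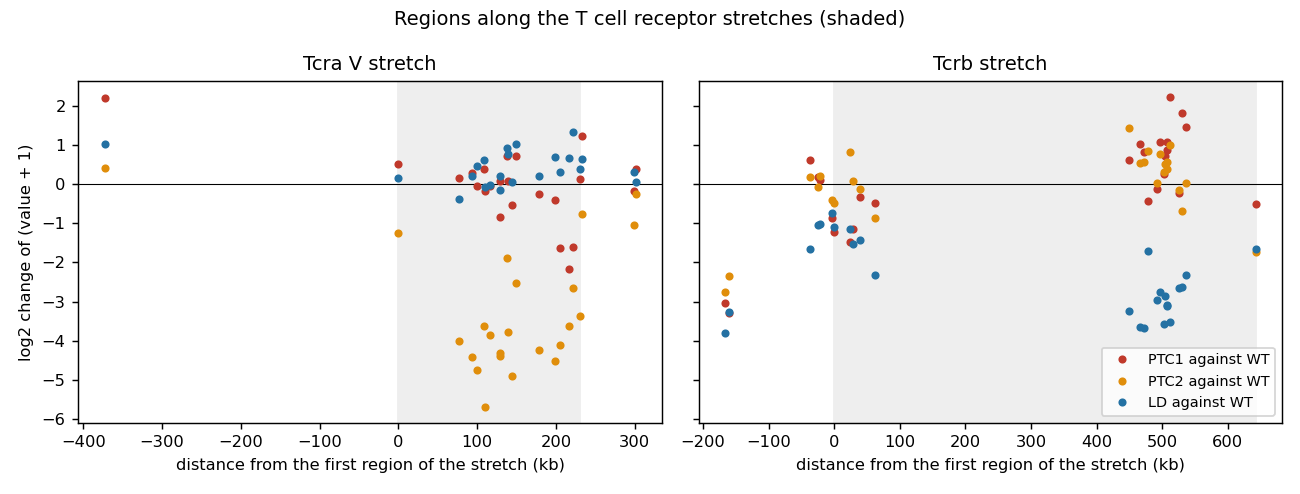
Log2 change of each region against WT (y axis) by its distance from the first region of the stretch in kb (x axis), for the T cell receptor alpha V stretch and the T cell receptor beta stretch (shaded) and their surroundings, in PTC1, PTC2 and LD. PTC2 regions sit near -4.01 in the alpha stretch and LD regions near -2.71 in the beta stretch, while the medians over each stretch were -0.05 for PTC1 and 0.30 for LD in the alpha stretch and 0.43 for PTC1 and 0.34 for PTC2 in the beta stretch.

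Neighbouring regions moved together outside these stretches too. In LD the median change of members was -0.498 on chromosome 18 and -0.444 on chromosome X, and in PTC1 it was 0.456 on chromosome 15, -0.45 on chromosome 18 and -0.443 on chromosome 16. The PTC mean was above LD on chromosomes 15 (0.508) and 6 (0.495) and below it on chromosomes 9 (-0.389) and 2 (-0.388). With the median of neighbours removed, 73.5 to 84.5% of the calls at members stayed called in the same direction, depending on the comparison and direction. Genes did not always move as a unit. Of 742 non-coding genes with 2 or more called regions in PTC1, 263 had all of them higher, 337 all lower and 142 had both. In PTC2 158 of 736 such genes had both, and in LD 78 of 519.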

How the data were processed

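ATAC-seq was done on 12 libraries of NIH/3T3 cells, 3 each of PTC1, PTC2, LD and WT. The deposited score values, called normalized read counts here, are read counts that the authors divided by 1 factor per library and rounded to whole numbers; the file holds no raw counts, so the depth of sequencing is unknown. The deposited table also gives the fraction of each region in the gene body, as the authors computed it, with the gene identifier, gene type and distance to the start. Per the submitters' processing notes, Trimmomatic 0.39, STAR 2.7.10a, Picard 2.25.5 and DESeq2 1.30.1 were used with mm10, and coordinates are printed as the table gives them. How peaks were called, how reads were filtered by mapping and whether they were shifted for the transposase is not given in the sources used here, and near-identical copies may share or split reads.

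The values, with 1 added, were put on the log2 scale and modelled in limma (3.58.1, R 4.3.3) with a mean per group over all 12 libraries, a variance trend, and Benjamini-Hochberg adjustment over the 81985 regions averaging at least 5; 10 other regions were left out, none of them a member. A call is an adjusted p under 0.05. The fit was tested on simulated data. A region called "with its neighbourhood removed" is one from which the median change of all regions within 1000000 bp, leaving out those within 5000 bp, was subtracted. Where fewer than 10 such regions were present, the median of the chromosome was subtracted instead. The alternatives besides this were equal medians, loess, no low filter, a pseudocount of 10, fits of the compared groups alone, a replicate block, chromosome centring and leaving out each library.

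Of 6502 gene identifiers, 28 took a symbol from the table and 2667 from RefSeq (GRCm38.p6) by class, strand and place, with at least 0.5 of the joint span shared; of 11754 protein-coding identifiers matched in this way, 96.7% received the symbol in the table. Regions are named that belong to 6 gene lists (up to 6 per list, by lowest adjusted p), are actin pseudogenes, are among the 6 largest rises or falls of a comparison (libraries not overlapping, a mean of 20 or more in the higher group), are among the 8 highest in WT, or have the lowest adjusted p of a gene type. Actin pseudogenes were found by symbol alone. Regions outside this rule are said to be chosen after their values were seen. The members and lists were chosen with earlier results of these data known.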

Additional observations from a re-analysis of the deposited data

How the results depend on the processing

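Rises and falls of non-coding regions kept within 1.5 times their number under every alternative run. Leaving out 1 library gave 2403 to 2626 rises and 2438 to 2639 falls in PTC1 against WT, 2065 to 2350 and 2446 to 2672 in PTC2, 1747 to 2078 and 1752 to 1988 in LD, and 2310 to 2556 and 2673 to 2919 in the PTC mean against LD. Over the other alternatives PTC2 against WT had up to 2823 rises and the PTC mean against LD up to 3094. Samples with the same replicate number deviated together only slightly, with r of -0.004 to 0.045 and a mean of 0.016. Other pairs had r of -0.04 to 0.022 and a mean of -0.008. With a replicate block PTC1 had 2624 rises and 2644 falls, PTC2 2355 and 2676, and LD 2094 and 1988. The PTC mean against LD had 2563 and 2935, and no named change was altered by the block. Of 5700 values of 285 named changes under 20 alternatives, 5488 kept their direction and call, 174 lost the call and 38 turned, none of them on leaving out a library. On removing the median of neighbours, the log2 change of ENSMUSG00000103593 became -0.163 in PTC1 and -0.086 in the PTC mean against LD, Gm34455 -0.171 in PTC1 and -0.051 in PTC2, Actg-ps1 0.282 in PTC1, Dnm3os -0.095 in LD, ENSMUSG00000048484 -0.115 in PTC2, Mir100hg 0.002 in PTC1 and 0.189 in the PTC mean against LD, Ftx 0.125 in PTC2, 0.336 in LD and -0.27 in the PTC mean against LD, Epb41l4aos 0.201 in PTC1 and 0.02 in LD, Rny1 -0.078 in PTC1 and -0.036 in the PTC mean against LD, Mir344b 0.107, Mir344d-1 0.015, Mir344d-2 0.337 and Mir148b (5236 bp away) -0.052 in PTC1, and Rny3 -0.411, Mir344 (1400 bp away) 0.307 and Mir344c 0.322 in the PTC mean against LD. On removing the chromosome's median, Zeb2os became 0.022 and Gm34455 -0.093 in PTC1, ENSMUSG00000107868 0.108 in LD and -0.144 in the PTC mean against LD, Snhg17 0.013 and ENSMUSG00000048484 -0.004 in PTC2, Ftx 0.098 in PTC2, 0.174 in LD and -0.062 in the PTC mean against LD, Epb41l4aos 0.195 in PTC1 and 0.151 in LD, and Rny3 -0.183 in the PTC mean against LD. With loess, ENSMUSG00000103593 became -0.083, Rnu1a1 -0.003 and Snhg8 -0.031 in the PTC mean against LD. The cause of these turns was not tested. Low regions limit precision: under a mean of 50 the fitted sizes depend on the pseudocount.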
